A study of Rattus norvegicus with 20 samples.

Results

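Becn1, Sqstm1, Lamp1, Lamp2, Ctsb, Ctsd, Ctsl and Ctsh are 8 genes of autophagy and the lysosome. They were followed in the liver of food-restricted rats through every probe set annotated to exactly 1 of them. A probe set is a group of short probes on the array that together give 1 signal. The rule found 15 of the 15923 probe sets on the array, and each of the 8 genes had at least 1, out of 10411 genes with such a probe set. Of these 15, 13 passed a filter on low signal and were tested among 9520 probe sets, and 2 probe sets of Lamp1, at mean signals of 5.83 and 1.60 units, did not. The lowest mean signal among tested probe sets was 11.7 units. Probe sets of 1 gene are lettered from the brightest, as in Sqstm1-a to Sqstm1-d.

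Male Wistar rats, an outbred laboratory strain, received a reduced diet from 6 weeks of age, per the series design. The reduction was 5, 10, 20 or 30%, or none in the controls, for 1 week or 1 month. Livers of all rats, controls included, were sampled after a 16 h fast. RNA of 5 rats was pooled in each of the 10 groups, and each pool was run on 2 Affymetrix GeneChips, which gave 20 arrays. The labels give 6 weeks of age for the 1 week groups and 9 weeks for the 1 month groups, so age and duration cannot be told apart. They do not say whether that age is at the start of the diet or at sampling. Each diet level at each duration is a single pool, so the spread between rats is not measured, and tests rest on how far the 10 pools depart from a fitted line or step.

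Autophagy encloses cytoplasm in a double membrane and delivers it to the lysosome, where acid hydrolases break it down. In the fasted liver it supplies amino acids and other fuel. Beclin 1, the product of Becn1, is part of the lipid kinase complex that starts the membrane. Sequestosome 1 (p62), the product of Sqstm1, carries ubiquitinated cargo into the membrane and is itself degraded with it. Lamp1 and Lamp2 encode the main glycoproteins of the lysosomal membrane, and Ctsb, Ctsd, Ctsl and Ctsh encode the proteases cathepsin B, D, L and H.

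Many lysosomal genes carry the letters CACGTG near their start, an E-box that is the core of the element bound by the transcription factor TFEB. RefSeq promoter sequences of the rat assembly GRCr8 were at hand for 6 of the 8 genes and were searched from 250 bases before to 50 bases after the gene start. CACGTG, which reads the same on both strands, was in the windows of 2 of the 6 genes, and in 2148 of 33469 promoters of the same length (6.42%). The window of Lamp1 held 5 copies, beginning 183, 167, 150, 65 and 38 bases before the start. It was the 1 promoter of 33469 with 5 or more copies. The window of Ctsd held 2 copies, beginning 157 and 10 bases before the start, and 0.52% of promoters had 2 or more. Those of Sqstm1, Lamp2, Ctsl and Ctsh held 0. The 250 bases before the start are shown for the 2 genes with copies and for Sqstm1 and Lamp2, whose probe sets are compared below. Each is written 5′ to 3′ on the strand of the gene, with every CACGTG in capitals.
Lamp1 (chr16:83075064-83075313, minus strand): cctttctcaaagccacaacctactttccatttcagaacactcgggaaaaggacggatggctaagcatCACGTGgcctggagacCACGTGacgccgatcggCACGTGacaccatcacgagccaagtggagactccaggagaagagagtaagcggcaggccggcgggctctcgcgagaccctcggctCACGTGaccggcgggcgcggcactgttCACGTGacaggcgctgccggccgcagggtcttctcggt
Ctsd (chr1:206968822-206969071, minus strand): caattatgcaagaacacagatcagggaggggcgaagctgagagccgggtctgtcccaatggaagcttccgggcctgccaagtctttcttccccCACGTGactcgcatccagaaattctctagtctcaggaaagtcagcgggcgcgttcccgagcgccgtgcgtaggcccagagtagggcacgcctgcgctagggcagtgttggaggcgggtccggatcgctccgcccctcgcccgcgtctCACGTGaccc
Sqstm1 (chr10:35037751-35038000, minus strand): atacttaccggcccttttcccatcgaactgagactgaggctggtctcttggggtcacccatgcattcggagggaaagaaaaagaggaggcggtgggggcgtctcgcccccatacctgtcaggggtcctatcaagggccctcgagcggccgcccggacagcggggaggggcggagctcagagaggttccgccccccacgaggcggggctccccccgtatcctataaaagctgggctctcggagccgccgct
Lamp2 (chrX:122087674-122087923, minus strand): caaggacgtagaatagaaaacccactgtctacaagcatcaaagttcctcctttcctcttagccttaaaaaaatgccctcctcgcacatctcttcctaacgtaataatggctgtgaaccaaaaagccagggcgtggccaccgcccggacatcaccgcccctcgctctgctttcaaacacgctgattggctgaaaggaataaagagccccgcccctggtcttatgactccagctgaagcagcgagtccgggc

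Arrays were put on a common scale by quantile normalisation, since their trimmed mean signals ran from 38.4 to 98.8 units. Those 2 extremes were the 2 arrays of the 30% pool at 1 month. A signal below is the normalised value of a pool, the geometric mean of its 2 arrays, in arbitrary units of 1 probe set. Signals of different probe sets cannot be set against each other. Differences are on the log2 scale, and an adjusted p is that of limma's two-sided test, corrected over the 9520 probe sets by the Benjamini-Hochberg method, with a threshold of 0.05. Of the hepatocyte markers, 7 of 8 were measured, and their summed signal was 36800 and 36300 units in the control pools at 1 week and 1 month and 34300 to 36800 in the restricted pools. Alb made the largest part of that sum, at a mean of 10800 units. With increasing restriction 0 of the 7 passed the threshold. To 2 decimals 0 of them had a slope above 0, with a median of -0.02.

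Of the 13 tested probe sets of the 8 genes, 1 of Sqstm1 and 1 of Lamp2 fell with increasing restriction. The other 11 did not pass the test. In all, 2 of 13 were called and both were lower, where 3.76% of all tested probe sets were called, 171 higher (1.8%) and 187 lower (1.96%). An unadjusted p under 0.05 was reached by 3 of the 13 and by 19% of all. The median slope of the 13 was -0.06 per 30 percentage points of restriction, against 0 for all probe sets, with 5 above 0 and 8 below. In tissue RNA, fewer cells of a type and less RNA per cell cannot be told apart.

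**Figure D1:**
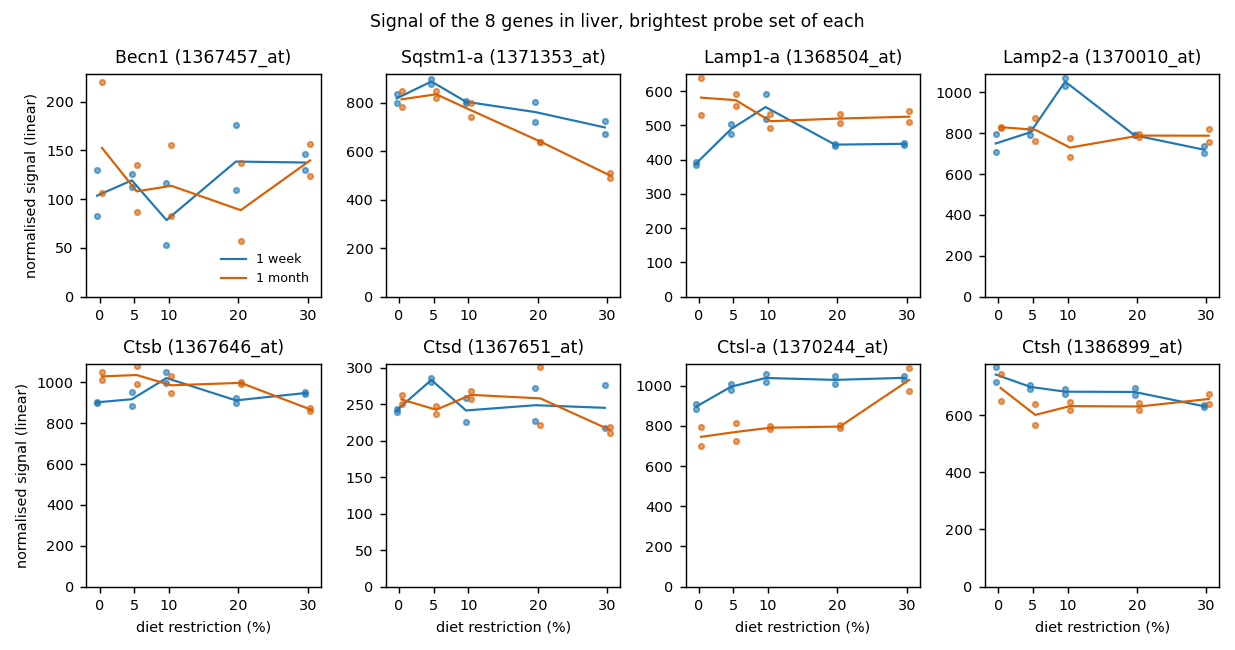
Normalised signal (linear, arbitrary units) of the brightest probe set of each of the 8 genes against diet restriction in percent. Points are single arrays, 2 for each pool, and lines join the pool means at 1 week (blue) and 1 month (orange), drawn with a small sideways shift. The mean of Sqstm1 declines to 501 units in the 1 month pool at 30%, while the pool means of Ctsb and Ctsh stay within 868 to 1040 and 601 to 741 units.

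Sqstm1 had the smallest p of the 8 genes in the dose trend. Its brightest probe set, Sqstm1-a, had signals of 818, 888, 804, 761 and 698 units at 0, 5, 10, 20 and 30% restriction for 1 week. After 1 month the signals were 814, 835, 769, 640 and 501 units. The 10, 20 and 30% pools were below both controls at both durations, and both 5% pools were above them. In the order of levels, the 5% pool at 1 week stood highest with arrays of 878 and 898 units. The 5% pool at 1 month, both controls and the 10% pool at 1 week followed at 835 to 804 units with overlapping arrays. The 1 month pools at 20 and 30% stood apart at the bottom, with both arrays at 640 units in the former and arrays of 491 and 510 units in the latter. Over both durations the signal fell by 0.51 ± 0.102 (SE, n = 10 pools) per 30 points on the log2 scale, a 1.43-fold decrease (limma adjusted p = 0.0199).

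The slope of this probe set was -0.28 ± 0.114 at 1 week and -0.74 ± 0.114 at 1 month. The 1 month slope had the rank 5 by p among 9520 probe sets, but its limma adjusted p was 0.0804, and only 3 probe sets (0.0315%) passed in that comparison. The difference of the slopes, -0.46 ± 0.161, did not pass (limma adjusted p = 0.903), nor did any of the 9520 probe sets (0%), of which 525 had an unadjusted p under 0.05. Against the control of its duration, the 1 month pool at 30% was 1.63-fold lower, with arrays apart. By that rule of size, at least 1.5-fold with no overlap between the arrays of the pools, 6.72% of probe sets were lower in the same pool. The 2 arrays of that pool gave 318 and 797.9 units as deposited, before the arrays were put on a common scale.

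A second probe set, Sqstm1-b, did not follow. Its signals were 164, 218, 219, 207 and 196 units at 1 week and 194, 221, 178, 173 and 188 units at 1 month. The pools of 5, 10, 20 and 30% at 1 week and of 5% at 1 month were above both controls, and its slope was -0.02 ± 0.136 (limma adjusted p = 0.958). The slopes of the 2 probe sets differed by 0.49 on the log2 scale, the brighter one being lower. This pair and those of Lamp2 and Ctsl below were chosen after their values were seen, so their differences are given with no test. The other 2 probe sets of Sqstm1, Sqstm1-c and Sqstm1-d, were dim, at mean signals of 20.8 and 14.3 units. Their slopes of 0.18 ± 0.284 and 0.34 ± 0.367 lay within 1 SE of 0 (limma adjusted p = 0.802 and 0.69). Sqstm1-c was 1.93-fold lower than control in the 5% pool and 1.56-fold lower in the 10% pool at 1 month, with arrays apart, where 7.74% and 7.61% of probe sets were lower by that rule.

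**Figure D2:**
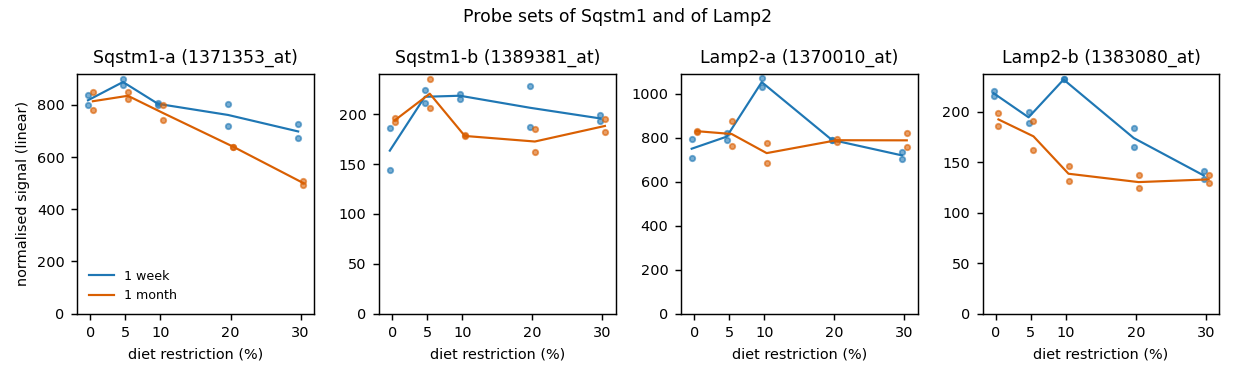
Normalised signal (linear, arbitrary units) of 2 probe sets each of Sqstm1 and Lamp2 against diet restriction in percent. Points are single arrays and lines join pool means at 1 week (blue) and 1 month (orange), drawn with a small sideways shift. At 30% restriction Sqstm1-a is at 698 and 501 units against 818 and 814 in the controls, while Sqstm1-b is at 196 and 188 against 164 and 194. Lamp2-b is at 137 and 133 units against 218 and 192, while Lamp2-a is at 719 and 788 against 750 and 829.

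Of the 2 probe sets of Lamp2, 1 passed the test. The product of Lamp2 lines the lysosomal membrane and, in 1 splice form, is the receptor of chaperone-mediated autophagy. The dimmer probe set, Lamp2-b, had signals of 218, 194, 232, 174 and 137 units at 1 week and 192, 176, 139, 130 and 133 units at 1 month. Of the 8 restricted pools 6 were below both controls, and the 10% pool at 1 week was above them. It fell by 0.60 ± 0.130 (SE, n = 10 pools) per 30 points on the log2 scale, a 1.52-fold decrease (limma adjusted p = 0.0281). The slopes at 1 week and 1 month were -0.66 ± 0.19 and -0.54 ± 0.19 and passed for neither duration alone (limma adjusted p = 0.126 and 0.34). In the 1 week pool at 30% it was 1.60-fold lower than control with arrays apart, where 8.34% of probe sets were lower by that rule.

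The brighter probe set of Lamp2, Lamp2-a, had signals of 750, 804, 1050, 790 and 719 units at 1 week and 829, 817, 730, 788 and 788 units at 1 month. Its 10% pool at 1 week stood above all other pools, with arrays of 1030 and 1070 units, and the arrays of the other pools overlapped one another in turn. Its slope was -0.10 ± 0.126 (limma adjusted p = 0.743). The slopes of the 2 probe sets differed by 0.50 on the log2 scale, the dimmer one being lower. Which transcript forms the probe sets of a gene read was not examined here.

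Both calls depended on how the arrays were scaled and were lost without some single pools, mostly at a similar slope. With the signals as deposited the slopes were -0.43 for Sqstm1 and -0.50 for Lamp2 (limma adjusted p = 0.803 and 0.771), and with median centring -0.56 and -0.63 (adjusted p = 0.0873 and 0.088). Without the 30% pool at 1 month the Sqstm1 slope was -0.36 (adjusted p = 0.0671). Without the 1 month control or the 30% pool at 1 week its call was lost at slopes of -0.52 and -0.60, as large as with all pools (adjusted p = 0.0686 and 0.0519). The Lamp2 call was lost without either control, without the 20 or 30% pool at 1 week, without the 20% pool at 1 month or without the second array of each pool, at slopes of -0.51 to -0.62 (adjusted p = 0.0502 to 0.144). The ratio of 3′ to 5′ signal of the GAPDH control probe sets, a measure of RNA integrity, was 1.51 and 1.52 in the control pools and 1.30 to 1.61 in the restricted pools, lowest in the 30% pool at 1 month. With it as a covariate the slopes were -0.38 and -0.66 (limma adjusted p = 0.253 and 0.169). The same ratio for actin was 2.73 and 2.72 in the controls, 2.23 and 2.28 in the 30% pools, the lowest of all, and 2.39 to 3.07 in the other restricted pools. With it as a covariate the slopes were -0.48 and -0.50 (limma adjusted p = 0.139 and 0.206).

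Lamp1, whose product is an abundant lysosomal membrane glycoprotein and whose promoter carries the 5 E-boxes shown above, had no dose trend past the threshold. Probe set Lamp1-a had signals of 389, 489, 553, 444 and 446 units at 1 week and 581, 573, 512, 520 and 525 units at 1 month. By pool means, the 1 week control was the lowest of the 10 pools and the 1 month control the highest, and all restricted pools lay between them. The arrays of the 1 month control, at 529 and 637 units, overlapped those of restricted pools, such as 556 and 591 in the 5% pool at 1 month. Its slope was -0.06 ± 0.122 (limma adjusted p = 0.845), and 1 month against 1 week it differed by 0.23 ± 0.0873 (limma adjusted p = 0.357). Its 2 dimmer probe sets ranged from 2.16 to 13.4 and from 0.713 to 5.06 units over the pools and were not tested.

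Becn1 could not be measured closely. Its probe set had signals of 104, 119, 78.6, 139 and 138 units at 1 week and 153, 108, 114, 88.8 and 140 units at 1 month. The 2 arrays of a pool disagreed more than the pools did, with an SD of 0.56 on the log2 scale between arrays of a pool and 0.309 between pools. Over all tested probe sets the median SDs were 0.236 and 0.231. Ctsd, Sqstm1-c and Sqstm1-d also had a larger SD between arrays than between pools. In the 1 month control the arrays read 220 and 106 units. The slope, 0.18 ± 0.243, had a 95% interval from -0.34 to 0.71, so the data are compatible with a fall or a rise within that range.

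Signals of Ctsb, Ctsh and Ctsd ranged less over the pools than those of the median probe set. So did those of Sqstm1-b, Lamp1-a, Lamp2-a, Ctsl-a and Ctsl-b. For Ctsh and Ctsd, 22.4% and 34.8% of the probe sets nearest in signal had a range no larger. Ctsb, a cysteine protease, had signals of 902, 918, 1020, 912 and 948 units at 1 week and 1030, 1040, 986, 998 and 868 units at 1 month. The range over the 10 pools was 1.19-fold, where the median of all tested probe sets was 1.66-fold, and 3.0% of all probe sets, or 14.4% of those nearest in signal, had a range no larger. Its slope was -0.10 ± 0.081 with a 95% interval from -0.27 to 0.08. Ctsh, a cysteine protease that trims amino termini, had signals of 741, 698, 682, 681 and 631 units at 1 week and 695, 601, 631, 630 and 656 units at 1 month. Of its restricted pools 7 of 8 were below both controls, but by little. Its step from control to restricted pools was -0.14 ± 0.0667, and its slope was -0.11 ± 0.0789 (limma adjusted p = 0.272 and 0.524).

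Ctsd, the main aspartic protease of the lysosome, had signals of 242, 283, 241, 249 and 245 units at 1 week and 257, 243, 263, 258 and 215 units at 1 month. The 5% pool at 1 week was the highest and the 30% pool at 1 month the lowest. They were 1.17-fold above and 1.19-fold below the control of their duration, and neither passed the rule of size. Its slope was -0.13 ± 0.101 with a 95% interval from -0.35 to 0.09 (limma adjusted p = 0.547).

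Signals of Ctsl were lower in the 1 month than in the 1 week pools at 0 to 20% restriction, without passing the test. Its product cathepsin L is a cysteine endopeptidase. On Ctsl-a the signals were 896, 995, 1040, 1030 and 1040 units at 1 week and 746, 770, 791, 797 and 1030 units at 1 month. The arrays of the 1 month pools from 0 to 20%, at 701 to 817 units, lay below those of all 1 week pools, at 886 units or more, whereas the 1 month pool at 30% lay among the 1 week pools. The 1 month pools were lower by 0.28 ± 0.0621 on the log2 scale (limma adjusted p = 0.0869). The slope with restriction was 0.29 ± 0.0864 (limma adjusted p = 0.0889), at 0.17 ± 0.116 for 1 week and 0.41 ± 0.116 for 1 month, and the slopes did not differ past the threshold (0.25 ± 0.164, limma adjusted p = 0.927). Without the 1 month pool at 30% the slope over both durations was 0.16.

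The second probe set of Ctsl, Ctsl-b, had signals of 226, 244, 240, 223 and 231 units at 1 week and 201, 158, 180, 176 and 259 units at 1 month. The means of its 1 month pools from 0 to 20% were also below those of all 1 week pools, and that of the 30% pool was above them. Unlike those of Ctsl-a, its arrays overlapped, with 220 units in 1 of the 1 month control and 203 in 1 of the 20% pool at 1 week. How many of all probe sets separated the durations in this way was not counted. The duration difference was again -0.28, with an SE of 0.107 (limma adjusted p = 0.371). The slopes of the 2 probe sets with restriction, 0.29 and 0.19, differed by 0.10.

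**Figure D3:**
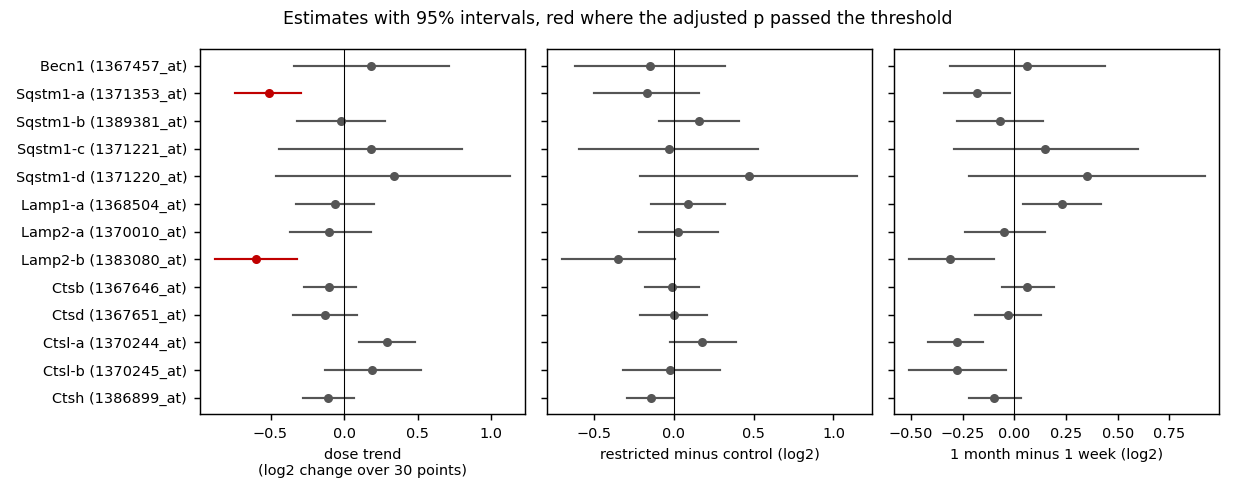
Estimates with 95% intervals (log2 scale, n = 10 pools) for the 13 tested probe sets of the 8 genes: the dose trend per 30 percentage points, restricted minus control pools, and 1 month minus 1 week. Red marks an adjusted p under 0.05, which Sqstm1-a at -0.51 and Lamp2-b at -0.60 reach in the dose trend and none reaches in the other panels.

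No probe set of the 8 genes passed in the other comparisons by limma. Between restricted and control pools taken as a single step, 0 of 13 passed, where 5.27% of all probe sets did, and 0 had an unadjusted p under 0.05, against 18.9% of all. Between 1 month and 1 week 0 of 13 passed, where 0.336% did, and 5 had an unadjusted p under 0.05 (10.7% of all): both of Ctsl, Lamp1-a, Sqstm1-a and Lamp2-b. For the slope within 1 week 0 of 13 passed (0.714% of all) and 2 had an unadjusted p under 0.05 (15.9% of all). Within 1 month 0 passed (0.0315% of all) and 3 had one (10.5%), and for the slope difference 0 passed (0% of all) and 1 had one (5.51%). A limma fit to single arrays, with the array number as a replicate block and the pool as a random block (consensus correlation 0.196), called 2 members for duration, 1 and 2 for the slopes within 1 week and 1 month, and 0 for the step and the slope difference. Of all 9520 probe sets it called 210, 591, 164, 920 and 2. The arrays of a pool are repeat runs of 1 RNA, so these calls rest in part on technical replicates.

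The same held for each level set against control, contrasts that share the control pools. At 5% and at 10% 0 of 13 passed (0.452% and 2.18% of all) and 0 had an unadjusted p under 0.05 (9.83% and 14.1% of all). At 20% 0 passed (3.8% of all) and 1 had one (16.4%). At 30% 0 passed (4.53% of all) and 3 had one (18.3%). These were Sqstm1-a at -0.46 ± 0.118, Lamp2-b at -0.60 ± 0.165 and Ctsl-a at 0.34 ± 0.105 (limma adjusted p = 0.0539, 0.0718 and 0.104). Over the 8 restricted pools set against the control of their duration, 4 differences of a probe set passed the rule of size, all lower: the 1 of Lamp2 and the 3 of Sqstm1 given above. Of all probe sets, 5.79, 5.63, 6.71 and 8.34% were lower by that rule in the 5, 10, 20 and 30% pools at 1 week and 7.74, 7.61, 6.67 and 6.72% at 1 month. Higher were 5.65, 7.27, 7.73 and 8.11% at 1 week and 8.74, 8.98, 8.28 and 8.34% at 1 month. By the brightest probe set, 1 to 7 of the 8 genes lay above their control in a pool, from 7 in the 5% pool at 1 week to 1 in the 30% pool at 1 month. The median difference of the 8 was 0.14 and -0.14 on the log2 scale in these pools, against 0.01 in both for all probe sets. The pools of a duration share 1 control, so these counts are not independent, and they were not tested.

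The patterns of the 8 genes varied. Across the 10 pools the 28 pairs of their brightest probe sets had a median Pearson correlation of 0.03, from -0.64 for Ctsb with Ctsl to 0.67 for Lamp1 with Ctsb and for Sqstm1 with Ctsd. The points are pools that share normalisation, and no test was made. Among 7055 other genes, the pattern of Sqstm1-a was most like those of Stx5 (r = 0.96), Msx1 and Thrsp (both 0.94) over the 10 pools, and 12 genes reached 0.9. For Lamp1 it was Pinx1 (0.94), for Lamp2 Brcc3 and Ids (both 0.91), and for Becn1 Pdcl and Rock2 (both 0.91). For the proteases it was Patl1 with Ctsb (0.91), Fads2 with Ctsd (0.93), Marchf7 with Ctsl (0.91) and Gmcl1 with Ctsh (0.94). Above 0.9 there were 8 genes for Ctsh and 1 or 2 for each of the genes other than Sqstm1. These values were picked as the largest of 7055 correlations over 10 pools, so they are a description with no test.

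The rest of the pathway was described by 10 lists of 197 symbols, some of them older names of a gene, of which 152 genes had a tested probe set. With increasing restriction 2 of the 152 rose and 2 fell, where 129 and 145 of all 7056 genes did, and their median slope was 0.03 against 0. Between restricted and control pools 7 rose and 3 fell, where 229 and 155 of 7056 did, and between the durations 2 were higher and 0 lower after 1 month, where 14 and 8 of 7056 were. For the slope difference 0 passed by limma, with 9 at an unadjusted p under 0.05.

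Cargo receptors held 2 of the rises. Bnip3, a receptor of mitophagy on the outer mitochondrial membrane, had signals of 108, 128, 176, 193 and 196 units at 1 week and 107, 160, 154, 208 and 183 units at 1 month. All 8 restricted pools were above both controls, and the slope was 0.77 ± 0.168 (limma adjusted p = 0.0281). Its relative Bnip3l was at 209 and 212 units in the controls and 239 to 287 in the restricted pools, a step of 0.33 ± 0.0859 (limma adjusted p = 0.0416). Wdfy3, which links aggregates to the autophagy machinery, rose from 47.8 to 85.2 units at 1 week and was at 59.5 in the control and 71.5 to 83.9 in the restricted pools at 1 month (slope 0.57 ± 0.143, limma adjusted p = 0.0477). In all, 2 of 9 measured receptors of the list rose in the dose trend and 2 in the step, and 0 fell. Sqstm1, also a cargo receptor, is not counted in this list, as 1 of the 8 genes, and Sqstm1-a fell in the dose trend.

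Cd164 and Keap1 were the 2 that fell with increasing restriction. Cd164, a sialomucin of endosomes and lysosomes, had signals of 2110, 1900, 1740, 1340 and 1310 units at 1 week and 1980, 1370, 1350, 1330 and 1160 units at 1 month. In both durations its mean was lower at each higher level. The 5, 10 and 20% pools at 1 month lay close together, with SDs between arrays of 0.0353, 0.0936 and 0.101 on the log2 scale. So did the 20 and 30% pools at 1 week, with SDs of 0.0278 and 0.0347. The slope of Cd164 was -0.66 ± 0.11 (limma adjusted p = 0.0101). It was the 1 of 10 measured genes of the lysosomal membrane list to pass in the dose trend. Keap1, the adaptor that holds the transcription factor Nrf2 for degradation and is itself bound by p62, had signals of 68, 53.9, 58.3, 44.1 and 43.7 units at 1 week and 69.1, 61.4, 55.2, 49.5 and 37.4 units at 1 month (slope -0.72 ± 0.126, limma adjusted p = 0.0117). Of the 28 measured regulators it was the 1 to pass, and Tfeb, at 0.21 ± 0.223, did not (limma adjusted p = 0.671).

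Subunits of the proton pump that acidifies the lysosome went in both directions in the step, 2 higher and 1 lower of 15. Atp6v0a1 was at 54.6 and 47.2 units in the controls and 26.2 to 35.6 in the restricted pools (-0.66 ± 0.148, limma adjusted p = 0.0228). Its paralog Atp6v0a2 was at 33.5 and 28.2 units in the controls and 40 to 49.2 in the restricted pools (0.50 ± 0.126, limma adjusted p = 0.0357). The 2 encode alternative forms of the same membrane subunit. Atp6v1e1 was higher by 0.43 ± 0.102 (limma adjusted p = 0.0277).

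Among genes that act beside or deliver the cathepsins, Ctsa, a serine carboxypeptidase, was at 316 and 314 units in the controls and 364 to 451 in the restricted pools. It was the 1 of 9 other lysosomal proteases to pass in the step (0.37 ± 0.0855, limma adjusted p = 0.0269). Of the 30 other hydrolases and activators, Pla2g15, a lysosomal phospholipase, was higher by 0.56 ± 0.126 (limma adjusted p = 0.0239). Of the 21 sorting genes, Vps33a, a subunit of the complexes that tether membranes to the lysosome, was higher by 1.06 ± 0.242, from 7.49 and 12.1 units in the controls to 15.9 to 23.8 (limma adjusted p = 0.0239). Its controls lay under or close to the lowest mean signal tested, so the size of the difference is not well measured. It was 0.70 without the 1 week control and 1.42 without the 1 month control, and passed in neither fit. Rab7a, the small GTPase of late endosomes, was lower by 0.31 ± 0.0707, from 528 and 449 to 368 to 437 units (limma adjusted p = 0.0239). Dnase2b and Vamp7 were the 2 higher after 1 month, by 0.72 ± 0.121 and 0.76 ± 0.105 (limma adjusted p = 0.0354 and 0.0117). With an array of each pool or 1 pool left out, Dnase2b passed in 2 of 12 fits, at 0.64 to 0.79, and Vamp7 in 11, at 0.68 to 0.84. With signals as deposited neither passed (limma adjusted p = 0.0641 and 0.108).

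The core machinery of autophagy gave no call in the dose trend, the step, the duration comparison or the slope difference. This held for 16 genes of initiation and nucleation, where the smallest p in the dose trend belonged to Pik3r4 at 0.42 ± 0.145 and Uvrag at 0.34 ± 0.124 (limma adjusted p = 0.132 and 0.154). It held for 11 genes of the conjugation system, where Gabarapl1 was at 0.36 ± 0.104 and Atg3 at 0.25 ± 0.101 (limma adjusted p = 0.0777 and 0.21). Gabarapl1 passed in the fit to single arrays (limma adjusted p = 0.0184) and in 1 of the 12 fits with an array of each pool or 1 pool left out. It held also for 3 cathepsin inhibitors, with Serpinb6a at 0.51 ± 0.239 and Cstb at 0.33 ± 0.168 (limma adjusted p = 0.276 and 0.326).

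**Figure D4:**
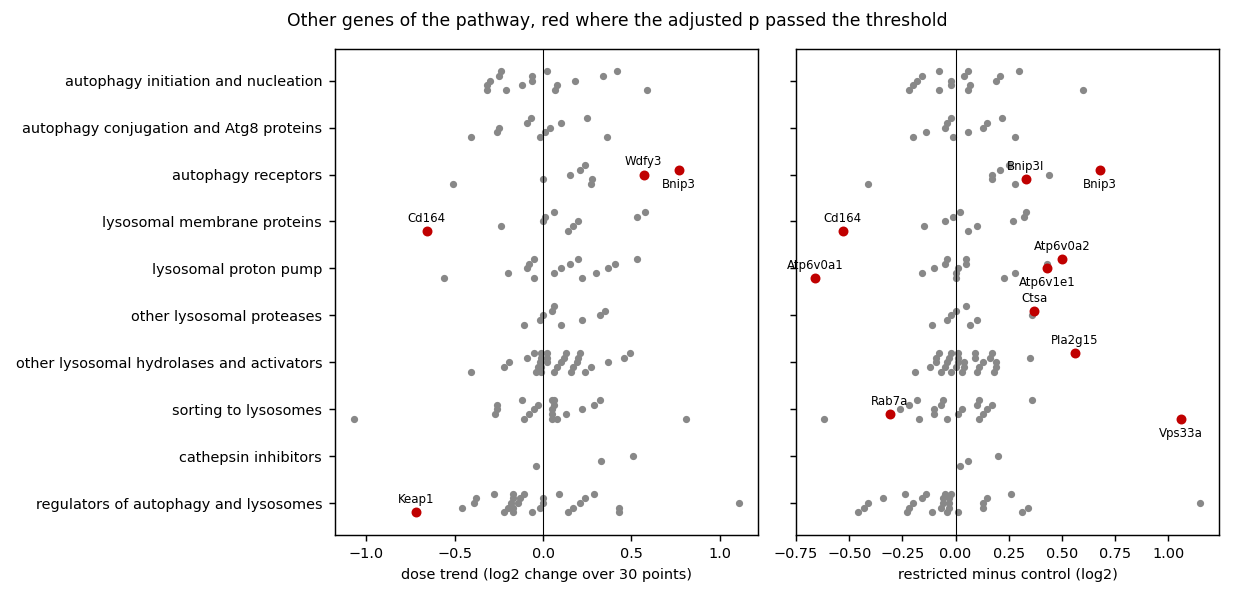
Each point is 1 of 152 other autophagy and lysosome genes by its list, with its dose trend (log2 change per 30 percentage points, left) and its difference between restricted and control pools (log2, right). Red and a name mark an adjusted p under 0.05, which 4 genes reach on the left and 10 on the right. Vertical offsets within a list only separate the points.

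The E-box CACGTG was in the promoter windows of 6 of 14 lysosomal membrane genes (42.9%), 6 of 23 sorting genes (26.1%) and 5 of 23 hydrolases and activators (21.7%), where 6.42% of all promoters held it. It was in 1 of 4 cathepsin inhibitors (25%), 2 of 13 proton pump genes (15.4%), 2 of 14 conjugation genes (14.3%) and 1 of 8 receptors (12.5%). Of regulators 3 of 26 (11.5%) held it, of other lysosomal proteases 1 of 11 (9.09%) and of initiation and nucleation genes 1 of 20 (5%). A second pattern, TGACNNNGC on either strand, modelled on the antioxidant response element through which Nrf2 acts, was in 12.1% of all promoters. Of the 6 windows at hand it was in those of Ctsl and Ctsd.

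Markers of other liver cells were followed beside these genes. Of 17 macrophage markers 9 were measured, and their summed signal was 997 and 933 units in the controls and 735 to 930 in the restricted pools, with 0 of 9 past the threshold in the dose trend. Lyz2 made the largest part of that sum, at a mean of 343 units, and 7 of the 9 had a slope above 0, with a median of 0.18. Of 8 endothelial markers 4 were measured. Their sum was 237 and 196 units in the controls and 254 to 329 in the restricted pools, with Ehd3 rising in the dose trend (1.17 ± 0.21, limma adjusted p = 0.0135) and Kdr in the step (0.60 ± 0.108, limma adjusted p = 0.00899). Sums for stellate cells (10 of 11 markers measured) were 662 and 513 units in the controls and 489 to 749 in the restricted pools, for red cells (2 of 6) 2110 and 1170 against 997 to 1870, for bile duct (1 of 6) 44.4 and 46.3 against 24.7 to 44.1, and for other leukocytes (1 of 13) 18.3 and 21.3 against 17.7 to 35.6. The lowest mean signal of a measured marker was 12.1 units, and the other markers had no tested probe set of their own. The part of these cells in the results above was not tested.

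The calls in the wider pathway also depended on the scaling. With signals as deposited 0 of the 4 genes called in the dose trend passed, with Bnip3 at 0.87, Wdfy3 at 0.67, Cd164 at -0.57 and Keap1 at -0.61 (limma adjusted p = 0.37, 0.544, 0.384 and 0.543). With the GAPDH ratio as a covariate 0 of them passed either, at slopes of 0.96 for Bnip3, 0.82 for Wdfy3, -0.69 for Cd164 and -0.56 for Keap1 (limma adjusted p = 0.115, 0.114, 0.115 and 0.184). In the step, signals as deposited gave 5 list genes higher and 0 lower, with Cd164 at -0.31, Atp6v0a1 at -0.40 and Rab7a at -0.11. Of the 10 step calls, median centring left 4, and the fits without a variance trend and with the GAPDH ratio left 2 each. With an array of each pool or 1 pool left out, in 12 fits, Keap1 passed in 12, Cd164 in 11, Bnip3 in 5 and Wdfy3 in 2. In the step, Bnip3, Cd164, Pla2g15 and Rab7a passed in 9 each, Atp6v0a1, Ctsa and Vps33a in 8 each, Atp6v1e1 in 5, Bnip3l in 4 and Atp6v0a2 in 3.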

How the data were processed

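Liver RNA of 10 pools of 5 rats was measured on 20 arrays. The deposited values are linear signal intensities, made by the authors with MAS5 per the submitters' processing notes, whose version is not given in the sources used here. Per the file values they were not brought to a common scale. Arrays were quantile-normalised and log2-transformed, with values of 0 set to the lowest positive value of the array. Control probe sets were left out, and the upper 60% by mean signal (9520) were tested. The 2 arrays of a pool were averaged, since they measure 1 RNA, so p-values measure the spread between pools around the fit. That spread includes the noise of the arrays. Over the non-control probe sets, arrays of the same pool correlated at 0.901 to 0.931 and arrays of different pools at 0.891 to 0.932. Models were fitted with limma 3.58.1 in R 4.3.3, with a variance trend and a threshold of 0.05, and were tested on simulated data. Gene names of probe sets came from GEO's platform annotation. A gene of several probe sets was represented in lists by its brightest. Named genes were all members, list genes that passed and, in lists with none, those of lowest p. The members, lists and tests were chosen with earlier results of these data known. Array numbers did not pair samples: over 45 pairs of pools the correlation of same-numbered deviations had a median of 0.0343, from -0.0473 to 0.121. Alternatives covered scaling, filter, variance trend, control-probe ratios, single arrays and each array or pool left out.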

Additional observations from a re-analysis of the deposited data

Results flagged for a closer look

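For 2 probe sets the means of all 4 restricted pools lay on one side of the control at 1 week and on the other at 1 month. How many of all probe sets did so was not counted, so these 2 cannot be set against a background. Lamp1-a lay above its 1 week control by 0.31 on average on the log2 scale (0.19 to 0.51) and below its 1 month control, with a mean difference of -0.13 (-0.18 to -0.02). Sqstm1-c, a dim probe set, lay above by 0.5 on average (0.28 to 0.74) and below with a mean of -0.56 (-0.95 to -0.26). The pools of a duration share 1 control pool. This difference between durations was not tested. The slopes with restriction differed by -0.18 ± 0.248 and -0.23 ± 0.588 between the durations (limma adjusted p = 0.971 and 0.983).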

How the results depend on the processing

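Of 1199 recomputed single values, 1000 kept their direction and side of the threshold, 151 lost and 19 gained a call, and 29 reversed. The cause was not tested. A value with no call that gained none counts as kept, so the 1000 do not measure how firm the calls are. With the GAPDH ratio as a covariate 15 of 60 values lost a call. Counts are of probe sets past the threshold, in the order dose trend, step, duration, slope at 1 week, slope at 1 month, slope difference, then 5, 10, 20 and 30% against control. With signals as deposited the dose trend gave 58 (18 higher, 40 lower; otherwise 171 and 187), 0 of them members. The step gave 295 higher and 46 lower (otherwise 301 and 201), duration 3, the slope at 1 week 43, the slope difference 1, the levels 112, 371, 630 and 261, and the rule of size 10 member differences. There the median of all probe sets shifted by 0.11 in the dose trend, 0.25 in the step and 0.19 in duration. Reversed were the dose trends of Sqstm1-b (0.08) and Lamp1 (0.03), the steps of Sqstm1-a (0.04) and Ctsh (0.08), and for Sqstm1-a duration (0.01), 10% (0.24) and 20% (0.15). Median centring gave 141 (27 higher, 114 lower) with 0 members, step 322, duration 6, and 27, 203 and 251 at 5, 20 and 30%. Without the variance trend counts were 108 with 0 members, 192 for the step, 1 for duration, 0 for both slopes, 0 at 5, 10 and 20%, and 107 at 30%. With the GAPDH ratio they were 3 with 0 members, duration 16, slopes 3 and 0, and 17, 201 and 197 at 5, 20 and 30%. Reversed dose trends were Becn1 -0.10, Sqstm1-b 0.04 and Sqstm1-d -0.10, Lamp1 0.01, Ctsb 0.03 and Ctsl-b -0.07. With the actin ratio they were 45 with 0 members, duration 20, slopes 0 and 0, and 2, 116, 206 and 1 by level. Reversed were Becn1 -0.21, Sqstm1-b 0.10, Lamp1 0.05 and Lamp2-a 0.07. The fit to arrays with the replicate block gave 864, 920, 210 (2 members), 591 (1), 164 (2), 2, then 276, 674, 885 (1) and 1002 (3). Its members in the dose trend were 3, with Ctsl-a added. Without a filter duration gave 17 and the slope at 1 week 32, and with the upper 40% 1 member passed at 30%. With an array set or a pool left out the counts ran from 66 to 469 (members 0 to 2), 62 to 888, 5 to 34 (members 0 to 1), 0 to 418, 0 to 6, 0 to 11, 2 to 156, 18 to 366, 22 to 472 and 107 to 565 (members 0 to 1). The dose trends of Sqstm1-b then ran from -0.17 to 0.04, of Sqstm1-c from -0.08 to 0.45, of Lamp1 from -0.20 to 0.00, of Lamp2-a from -0.18 to 0.00, of Ctsb from -0.15 to 0.00 and of Ctsl-b from -0.06 to 0.29. The 1 month slope of Ctsl-b ran from -0.14 to 0.75, the slope difference of Lamp1 from -0.36 to 0.13, and Sqstm1-a from -0.03 to 0.18 at 5% and -0.16 to 0.05 at 10%. The 2 arrays of each pool limit precision most for dim probe sets and Becn1.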
